A study of Mus musculus with 18 samples.

Results

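Potassium channel genes were taken as the genes of the count table whose symbol begins with Kcn, the prefix under which mouse potassium channel subunits are named, without pseudogenes and without 1 further gene that the rule leaves out. This gave 98 members of 55487 genes. Frontal cortex had been taken from 18 mice of 9 to 10 months, 3 females and 3 males of each of 3 genotypes, and the reads of each mouse were counted per gene. APP/PS1 mice carry the transgenes of an amyloid model and deposit amyloid, and APP/PS1/FTnKO mice also lack the β-subunit of farnesyltransferase (FT, gene Fntb) in forebrain neurons, where a CaMKIIα promoter drives Cre after birth. By the breeding scheme all 3 genotypes are homozygous for floxed Fntb and the WT and APP/PS1 mice are without Cre, whereas the deposited record names C57BL/6J for WT, so the strain background of WT is not settled. Mice with the knockout but without APP/PS1 were not analysed here. WT mouse 19622, a female, stood apart from all other mice and is described on its own at the end. All other values are from 17 mice, 5 of them WT and 6 of each other genotype.

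Potassium channels are pores that let K+ leave the cell and so set the resting potential, end the action potential and limit repetitive firing. A pore is built from 4 pore-forming domains, and a short loop in each, the selectivity filter, holds a glycine-tyrosine-glycine or glycine-phenylalanine-glycine run that strips water from K+ ions. The voltage-gated (Kv) subfamilies open on depolarization, the inward rectifiers (Kir) and 2-pore channels (K2P) hold the membrane near rest, and BK, SK and Slack channels open with intracellular calcium or sodium. Silent subunits such as Kv8 and Kv9 make no channel alone and join Kv2 subunits, while Kv β-subunits, KChIPs, KCNE and BK β-subunits attach to a pore and change its gating or its transport to the membrane.

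Of the 98 members, 14 passed the test in at least 1 comparison of genotypes, all of them in APP/PS1/FTnKO against WT, where 3.87% of all genes did, and 12 of these form or join a pore. For 9 of these the coding stretch around the selectivity filter is shown because it is what they share, while their expression differed in direction and in the genotype concerned. Each stretch of 33 bases is written 5′ to 3′ in the direction of the gene from GENCODE transcripts on GRCm38, with the 9 bases of the 3 filter codons in capitals.
Kcna3: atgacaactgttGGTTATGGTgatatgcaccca
Kcnb2: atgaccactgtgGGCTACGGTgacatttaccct
Kcnc2: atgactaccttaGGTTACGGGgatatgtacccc
Kcns1: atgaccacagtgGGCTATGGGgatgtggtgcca
Kcnv1: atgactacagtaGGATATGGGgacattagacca
Kcnh3: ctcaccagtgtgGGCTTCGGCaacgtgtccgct
Kcnt1: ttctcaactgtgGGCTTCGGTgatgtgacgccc
Kcnj3: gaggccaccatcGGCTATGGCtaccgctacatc
Kcnj6: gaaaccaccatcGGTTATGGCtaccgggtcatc
The middle filter codon was a tyrosine codon in 7 of the 9 stretches and a phenylalanine codon in 2, Kcnh3 and Kcnt1. All 9 runs of 9 bases differed from each other, and over the 33 bases the pairs shared from 12 bases (36.4%, Kcnt1 with Kcnj3 or Kcnj6) to 27 bases (81.8%, Kcnj3 with Kcnj6). The Kcna3 stretch lies on chromosome 3 from 107037605 to 107037637 in the only exon of the annotated transcript and the Kcnt1 stretch on chromosome 2 from 25894361 to 25894393 in exon 11 of 32. The remaining stretches, with their strand, were Kcnb2 at chr1:15710040-15710072 (plus), Kcnc2 at chr10:112456223-112456255 (plus), Kcns1 at chr2:164164842-164164874 (minus), Kcnv1 at chr15:45109277-45109309 (minus), Kcnh3 at chr15:99232923-99232955 (plus), Kcnj3 at chr2:55437621-55437653 (plus), and Kcnj6 at chr16:94832765-94832797 (minus). Of the called members 2, Kcnab2 and Kcnip3, encode cytoplasmic subunits and held no such codons.

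Of the called members, 4 passed in 2 comparisons each, and of these Kcna3 and Kcnip3 had RefSeq promoters (GRCm38.p6) that are shown here. The 250 bases before the start are printed 5′ to 3′ on the strand of the gene, for Kcna3 on the plus strand (chr3:107035912-107036161) and for Kcnip3 on the minus strand (chr2:127522095-127522344) at the most upstream of its 3 starts. Capitals mark GGGCGG, the letters of a GC box, searched on both strands.
Kcna3: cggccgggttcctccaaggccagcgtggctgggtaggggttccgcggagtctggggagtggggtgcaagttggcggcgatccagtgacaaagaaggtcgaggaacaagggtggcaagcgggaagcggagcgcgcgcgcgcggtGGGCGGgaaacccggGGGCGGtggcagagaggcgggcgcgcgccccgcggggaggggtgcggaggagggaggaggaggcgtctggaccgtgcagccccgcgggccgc
Kcnip3: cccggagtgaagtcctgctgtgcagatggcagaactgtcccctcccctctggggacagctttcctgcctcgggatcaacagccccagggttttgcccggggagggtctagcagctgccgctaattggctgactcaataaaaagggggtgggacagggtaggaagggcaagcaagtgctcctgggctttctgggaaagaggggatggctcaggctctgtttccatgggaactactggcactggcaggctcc
GGGCGG occurred 2 times before Kcna3. It was absent from the Kcnip3 window printed and from that of a second start, and occurred 1 time before the most downstream start (chr2:127482500-127482749, GC content 71.2%). Of all 32851 promoters of this length 32.7% hold it. TGACGTCA, the cAMP response element, was in none of these windows and in 1.55% of all promoters. The GC content was 74.4% for Kcna3 and 60% for the printed window of Kcnip3, against a median of 52.4% over all promoters.

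Between 15925432 and 21030935 counts were assigned in each mouse, a depth at which counting error matters mainly for the low members. The RNA integrity number (RIN) had a median of 8.7 in WT (8.5 to 8.8), of 8.2 in APP/PS1 mice (7.7 to 8.7) and of 8.6 in APP/PS1/FTnKO mice (7.6 to 8.7). Fntb had 14.1 to 32.2 normalized CPM (counts scaled to library size) in WT and 14.2 to 32.1 in APP/PS1 mice, and the knockout mice overlapped both at 7.84 to 14.7. Bulk counts of Fntb cover the whole gene in all cells, not the deleted part in neurons alone. App was above every WT mouse in all 12 transgenic mice (2117 to 3640 CPM, against 1492 to 1613 in the 5 WT mice). The cortical label was met by all 17 mice: the summed level of 6 forebrain genes was 170 to 306 CPM and that of 10 cerebellar genes 147 to 199 CPM.

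Differential expression was tested with edgeR's quasi-likelihood test in a single fit of the 3 genotypes with sex as a further term, and a gene was called when its Benjamini-Hochberg FDR over all 17414 tested genes was below 0.05. Enough counts for the test were present in 81 members. The 17 others had a mean of at most 0.334 CPM, and 2 of them, the K2P genes Kcnk16 and Kcnk18, had no count in any of the 17 mice. Fewer cells of a type and less RNA per cell cannot be told apart in these whole-tissue counts.

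Per kilobase of exon, the highest member was Kcnab2, the Kv β2-subunit that docks on Kv1 channels, with 78.0 CPM per kb (mean of 17 mice). It was followed by the inward rectifier Kcnj4 (Kir2.3) with 63.9 and the Kv4 partner Kcnip2 (KChIP2) with 54.0 CPM per kb. Kcnk1 (35.7), Kcnh3 (35.0), Kcnip3 (34.6), Kcnt1 (32.2), Kcnj9 (31.6), Kcnf1 (29.3) and Kcna2 (24.4 CPM per kb) were also high. Neighbours in this order were close: Kcnip3 spanned 98.8 to 143 CPM over all 17 mice and Kcnh3 163 to 228 CPM, so each varied between mice by more than their levels per kb differed. Levels also ranged widely within subfamilies. Kcnc1, Kcnc4 and Kcnc2, genes of the Kv3 family, had 20.6, 16.6 and 12.2 CPM per kb, and the Kv2 gene Kcnb2 had 1.58. In the Kv7 family Kcnq3 and Kcnq5 (13.5 and 14.9 CPM per kb) were far above Kcnq1, the cardiac member, at 0.163. Among BK β-subunits, Kcnmb4, the neuronal form, was at 14.6 and Kcnmb1, that of smooth muscle, at 0.259 CPM per kb.

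**Figure D1:**
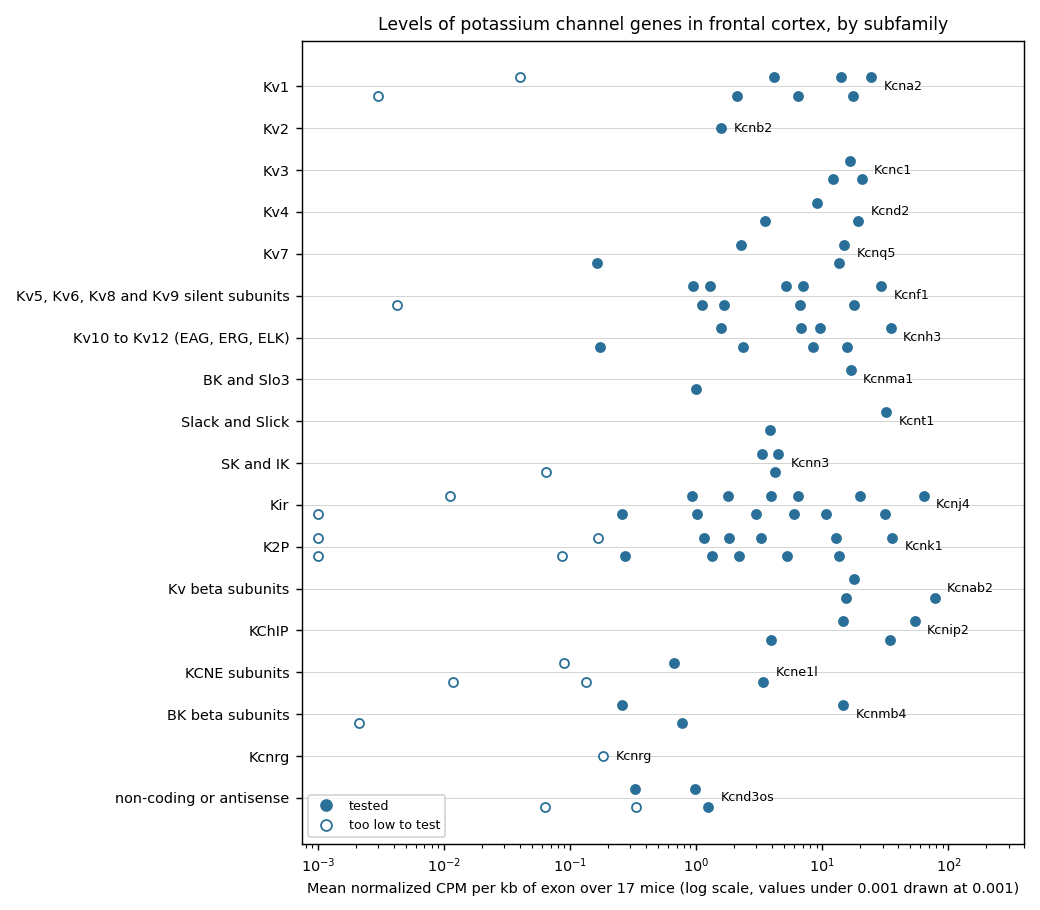
Mean normalized CPM per kb of exon (log x axis) of 95 potassium channel genes over 17 mice, by subfamily; filled points were tested and open points were too low to test. The name is that of the highest member plotted for each subfamily, from Kcnab2 at 78.0 to Kcnrg, which was too low to test.

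In APP/PS1 against WT mice, 3 members fell and none rose. Among them were Kcna3 (Kv1.3), the Kv1 subunit best known from microglia and T cells, and Kcnb2 (Kv2.2), a delayed rectifier. Kcna3 had 4.11, 5.74, 5.86, 6.34 and 8.15 CPM in WT and 2.30 to 3.88 CPM (median 3.38) in APP/PS1 mice. No APP/PS1 mouse reached the lowest WT mouse, and the log2 fold change was -0.86 (SE 0.20, FDR = 0.0347). Kcnb2 had 25.8, 26.1, 27.6, 30.5 and 36 CPM in WT and 16.8 to 25.3 CPM (median 21.8) in APP/PS1 mice. The groups again did not overlap, though the highest APP/PS1 mouse came within 1 CPM of the lowest WT mouse (log2 fold change -0.43, SE 0.10, FDR = 0.0376).

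The background in APP/PS1 against WT was 1.50% of all genes called in either direction and 0.178% called lower. Of the 81 tested members 64 had a lower mean in APP/PS1, and their median log2 fold change was -0.114, against -0.00233 over all genes. At an unadjusted p below 0.05, 19 members were lower and 2 higher, where 6.05% of all genes were lower. A further measure, free of the model, is separation: 5 members had every APP/PS1 mouse below every WT mouse, among them Kcna2, Kcna3, Kcnb2 and Kcnk3, where 0.695% of all genes did. The members with the next smallest p that were not called were Kcnj6 (-0.49, SE 0.13, FDR = 0.0854), the G-protein-gated GIRK2, and Kcna2 (-0.33, SE 0.09, FDR = 0.1), the axonal Kv1.2. On the higher side Kcne1l, an X-linked KCNE subunit, came first at 0.62 on the log2 scale (SE 0.24, FDR = 0.247), ahead of Kcnt1 (0.15, FDR = 0.272) and Kcnh4 (0.26, FDR = 0.37). Kcnj2 (FDR = 0.411) and Kcnk6 (FDR = 0.516), both at 0.20, followed. Kcna3 was called in 9 and Kcnb2 in 8 of the 17 fits that left out a mouse, and Kcnb2 was also not called with limma-voom or with only the 2 genotypes compared. With all 18 mice 0 members were called by edgeR (2 by DESeq2), where edgeR called 1.20% of all genes. In that edgeR fit 13 of the 81 members had an unadjusted p below 0.05, where 2475 of 17285 genes did.

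In APP/PS1/FTnKO against APP/PS1 mice, groups that differ in neuronal FT and also in the Cre transgene, so that the effects of these cannot be told apart, 1 member fell. This was Kcnip3, which encodes KChIP3 (also DREAM or calsenilin), a calcium-binding protein that partners Kv4 channels and represses transcription. Kcnip3 had 98.8 to 119 CPM (median 107) in APP/PS1/FTnKO and 122 to 143 CPM (median 128) in APP/PS1 mice, with no overlap, and 122, 126, 129, 137 and 141 CPM in WT mice. The log2 fold change was -0.28 (SE 0.05, FDR = 0.0352), and it was 0.00 (SE 0.06) between APP/PS1 and WT mice. The other 3 KChIP genes had log2 fold changes of 0.03 (Kcnip2), 0.08 (Kcnip4) and 0.14 (Kcnip1) in the same comparison. Kcnip3 was called in 7 of the 17 fits with a mouse left out and had an FDR of at most 0.0948 in the other 10, and it was not called with all 18 mice (FDR = 0.734).

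In this comparison 3 further members were close to the threshold. Kcns1 (Kv9.1), a silent subunit, had 8.56 to 13.4 CPM (median 11.7) in APP/PS1/FTnKO and 14 to 17.6 CPM (median 15.3) in APP/PS1 mice. Its groups did not overlap (-0.45 on the log2 scale, SE 0.10, FDR = 0.0586). Kcnh3 (Kv12.2), a channel open near rest in forebrain neurons, differed by -0.25 (SE 0.06, FDR = 0.0774) and Kcnab2 by -0.18 (SE 0.04, FDR = 0.0941), both with overlap, followed by Kcnj4 (-0.20, SE 0.06, FDR = 0.171). Of all genes 0.327% were called, 0.144% lower, and 0.373% had every APP/PS1/FTnKO mouse below every APP/PS1 mouse, as Kcnip3 and Kcns1 did among the members. Of the members 53 of 81 were lower, with a median log2 fold change of -0.0499 against -0.00161 over all genes. This median rested on single mice: it was -0.02, with 56.8% of the members lower, without APP/PS1/FTnKO mouse 16974, -0.03 without APP/PS1/FTnKO mouse 19394 or APP/PS1 mouse 19744, -0.08 without APP/PS1 mouse 16975 and -0.09 without APP/PS1/FTnKO mouse 18973. At an unadjusted p below 0.05, 9 members were lower (5.69% of all genes) and 1 higher, Kcnt1 (0.17, SE 0.06, FDR = 0.226). Next on the higher side, none called, were Kcnn2 (SK2, 0.15, FDR = 0.471), Kcnab3 (0.29, FDR = 0.503), Kcnh6 (0.21, FDR = 0.533) and the non-coding Kcnq1ot1 (0.17, FDR = 0.54). With all 18 mice, 0 members were called, where 0.0116% of all genes were. An unadjusted p below 0.05 was found in 2 of the 81 members and in 1152 of 17285 genes.

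**Figure D2:**
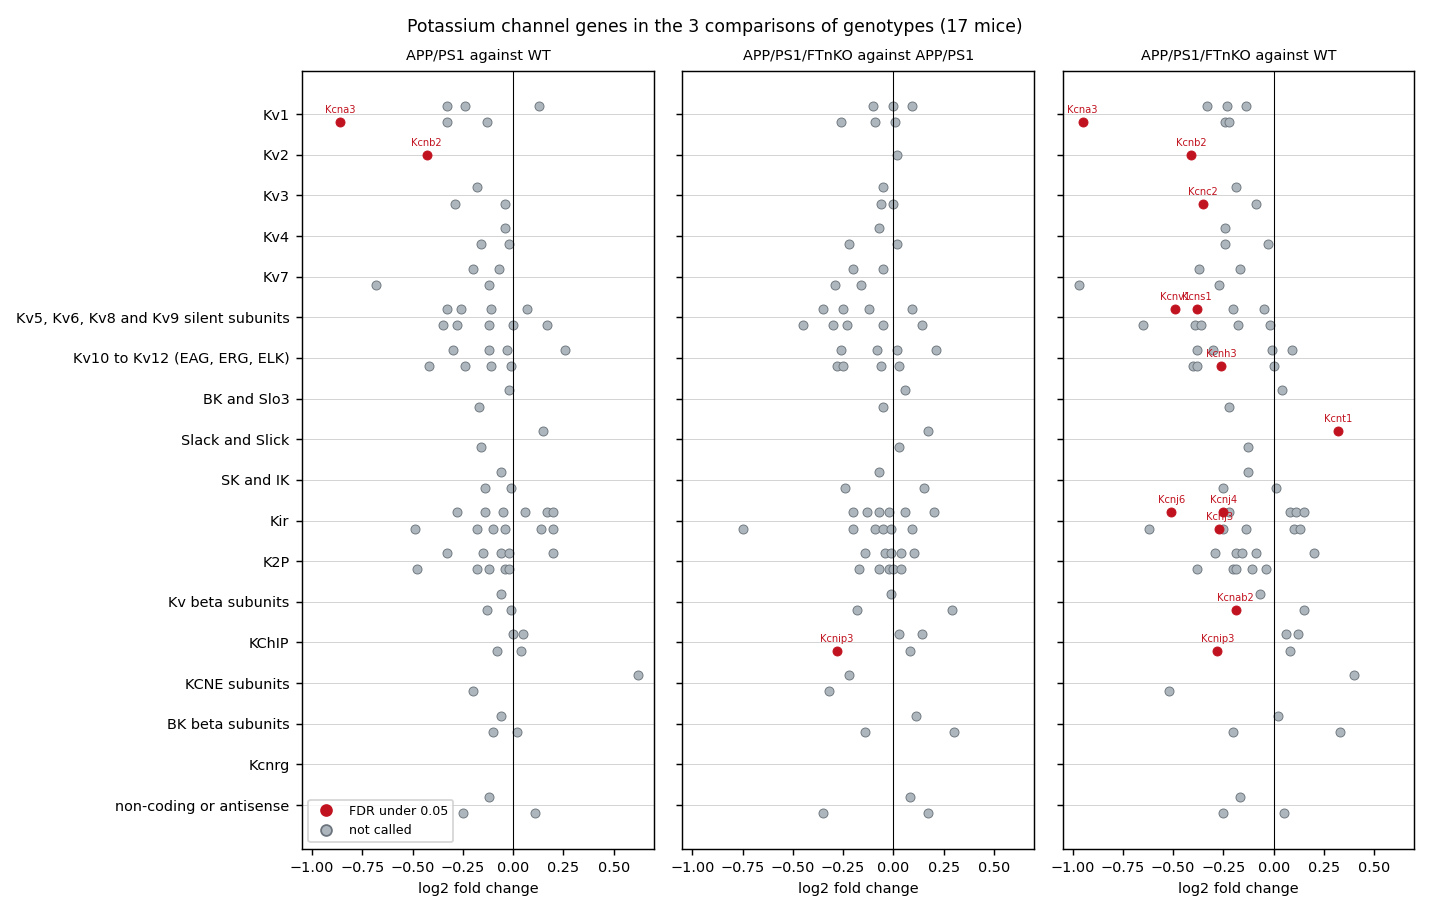
Log2 fold change of 78 tested members by subfamily in the 3 comparisons of genotypes (17 mice); red points were called (FDR below 0.05). The comparison of APP/PS1/FTnKO with WT holds 11 called points on the lower side and Kcnt1 alone on the higher side.

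In APP/PS1/FTnKO against WT mice, 13 members fell and 1 rose, where 3.87% of all genes were called, 1.65% lower and 2.22% higher. This comparison shares its WT mice with the first comparison and its APP/PS1/FTnKO mice with the second, so its calls are not independent of theirs. Kcnt1 (Slack), a sodium-activated channel that limits firing during sustained activity, was the only member called higher. It had 256, 269, 269, 275 and 295 CPM in WT and 300 to 370 CPM (median 342) in APP/PS1/FTnKO mice, above every WT mouse, with APP/PS1 mice between (282 to 333 CPM, median 299). The log2 fold change was 0.32 (SE 0.06, FDR = 0.00753), and it was called in all 17 fits that left out a mouse. Its paralog Kcnt2 (Slick) differed by -0.13 and was not called. Kcna3 had 1.78 to 4.06 CPM (median 3.07) in APP/PS1/FTnKO mice, again below every WT mouse (log2 fold change -0.95, SE 0.20, FDR = 0.0135), and stayed below the threshold in all 30 alternative fits, with FDR from 2.80e-04 to 0.0475.

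Delayed rectifiers were among the 13. Kcnb2 had 18.6 to 23.9 CPM (median 22.5) in APP/PS1/FTnKO mice, all below WT (-0.41, SE 0.10, FDR = 0.0303). Kcnc2 (Kv3.2), found in fast-spiking interneurons, had 91.6, 96.2, 102, 106 and 113 CPM in WT and 69.2 to 87.7 CPM (median 79.4) in APP/PS1/FTnKO mice. It did not overlap WT (-0.35, SE 0.09, FDR = 0.0445). Kcnc1 (-0.19, SE 0.06, FDR = 0.0886) and Kcnc4 (-0.09, SE 0.09, FDR = 0.567) were not called.

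Silent subunits and Kv12 followed. Kcnv1 (Kv8.1) had 86.9, 88.3, 91.1, 103 and 118 CPM in WT and 58.9 to 83.4 CPM (median 67.7) in APP/PS1/FTnKO mice. All of the latter lay below WT (log2 fold change -0.49, SE 0.13, FDR = 0.0409). Kcns1 had 12.9, 13.6, 15.3, 16.1 and 16.3 CPM in WT, and the highest APP/PS1/FTnKO mouse (13.4) overlapped them (-0.38, SE 0.10, FDR = 0.049). This call was the least stable, being kept in 2 of the 17 fits with a mouse left out. All 9 tested silent subunits were lower than in WT, from -0.65 (Kcng3, SE 0.19, FDR = 0.0567) to -0.02. Kcnh3 had 206, 206, 217, 220 and 221 CPM in WT, 191 to 228 CPM (median 214) in APP/PS1 and 163 to 210 CPM (median 175) in APP/PS1/FTnKO mice. Of the 6 knockout mice 5 lay below all others, and the sixth, mouse 19720 at 210, within them (-0.26, SE 0.06, FDR = 0.0289). The other 7 genes of Kv10 to Kv12 were not called, with log2 fold changes from -0.40 to 0.09.

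Of the 12 tested Kir genes 3 fell. Kcnj3 and Kcnj6 encode GIRK1 and GIRK2, which join into the channel opened by G-protein-coupled receptors such as GABA-B. Kcnj3 had 105, 116, 118, 121 and 123 CPM in WT and 87.9 to 106 CPM (median 95.9) in APP/PS1/FTnKO mice, with 1 mouse overlapping (-0.27, SE 0.06, FDR = 0.0236). Kcnj6 had 25.2, 27.8, 28.0, 30 and 32.8 CPM in WT and 15.9 to 26.3 CPM (median 19.5) in APP/PS1/FTnKO mice, also with 1 mouse overlapping (-0.51, SE 0.13, FDR = 0.0417). The third brain GIRK gene, Kcnj9, was not called (-0.14, SE 0.07, FDR = 0.239). Kcnj4, the highest Kir gene, had 137, 138, 145, 153 and 165 CPM in WT, 136 to 157 CPM (median 141) in APP/PS1 and 113 to 142 CPM (median 120) in APP/PS1/FTnKO mice (-0.25, SE 0.06, FDR = 0.0356). The remaining Kir genes ranged from -0.62 (Kcnj13) to 0.15, none called.

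The 2 called auxiliary subunits were Kcnip3 and Kcnab2. Kcnip3 was lower in all APP/PS1/FTnKO mice than in any WT mouse (-0.28, SE 0.06, FDR = 0.0124). Kcnab2 had 433, 446, 452, 478 and 479 CPM in WT and 375 to 435 CPM (median 397) in APP/PS1/FTnKO mice, overlapping by a single mouse (-0.19, SE 0.05, FDR = 0.0322). The other Kv β genes were Kcnab1 (-0.07) and Kcnab3 (0.15), neither called. Of the Kv1 subfamily all 6 tested genes were lower, from -0.95 (Kcna3) to -0.14, with Kcna3 alone called. Kv4, Kv7, SK, BK and K2P channels held no called member. Kcnq3 (-0.37, SE 0.11, FDR = 0.0774) and Kcnma1, the BK pore (-0.22, SE 0.07, FDR = 0.0828), came nearest.

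Over all 81 members 63 were lower in APP/PS1/FTnKO than in WT, with a median log2 fold change of -0.193 against 0.00529 over all genes. At an unadjusted p below 0.05, 32 members were lower, where 10.9% of all genes were, and 1 was higher. In 8 members every APP/PS1/FTnKO mouse lay below every WT mouse (Kcna3, Kcnb2, Kcnc2, Kcng3, Kcnh1, Kcnip3, Kcnq3 and Kcnv1), where 2.85% of all genes did. Kcnt1 was the only member with every such mouse above, as 2.75% of all genes were. With all 18 mice, 2 members were called, Kcna3 (-0.88, FDR = 0.0312) and Kcnj3 (-0.28, FDR = 0.031), and 1.51% of all genes. Next to Kcnt1 on the higher side in the 17 mice, none called, came Kcne1l (0.40, FDR = 0.33), Kcnk6 (0.20), Kcnip4 (0.12, FDR = 0.447) and Kcnj2 (0.13). When each mouse was left out in turn, Kcnip3 stayed called in 16 of 17 fits (its FDR was 0.0611 without WT mouse 19053), Kcnb2 and Kcnj3 in 11, Kcnab2, Kcnh3 and Kcnj4 in 10 and Kcnc2, Kcnj6 and Kcnv1 in 7. In the fit of 18 mice Kcnh3 and Kcnj4 turned to 0.03, because mouse 19622 had almost none of either.

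**Figure D3:**
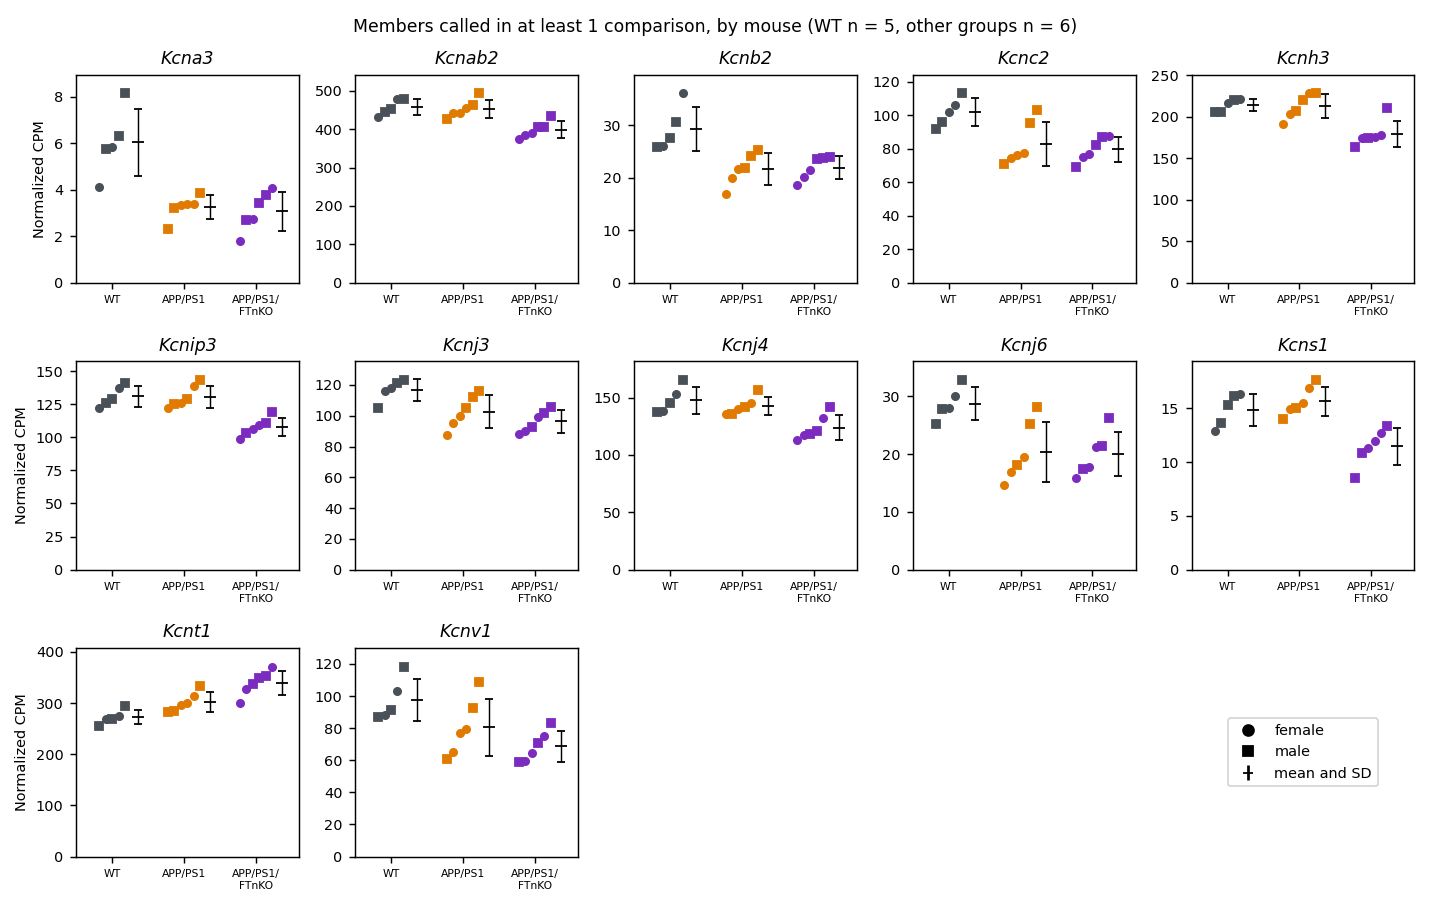
Normalized CPM (linear y axes from 0) of 12 called members in each of 17 mice; circles are females, squares males, and the bar beside each group is the mean with its SD (WT n = 5, other genotypes n = 6). Kcna3 and Kcnb2 step down from WT to both APP/PS1 groups, and Kcnt1 is highest in APP/PS1/FTnKO. Kcnip3, Kcnh3, Kcnj4, Kcns1 and Kcnab2 have APP/PS1 means near or above those of WT and lower means in APP/PS1/FTnKO. Kcnc2, Kcnj3, Kcnj6 and Kcnv1 have APP/PS1 means below WT and their lowest means in APP/PS1/FTnKO.

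RNA integrity moved with part of these differences, and its part in them was not tested beyond the fits given here. The 2 APP/PS1 mice with the highest RIN were the males 19619 and 19744 (RIN 8.7 and 8.6). The other 4, among them all 3 females, were at 7.7 to 8.3, so this split went partly with sex. Mice 19619 and 19744 were both above the other 4 APP/PS1 mice in 20 of the 81 members (24.7%) and in 13.4% of all genes. They were both below them in 8 members (9.88%) and in 14.2% of all genes. Kcnc2 was 95.4 and 103 CPM in these mice and 70.9 to 77.3 CPM in the other 4, and Kcnj6 and Kcnv1 showed the same split. With RIN as a covariate, the log2 fold change between APP/PS1 and WT went from -0.29 to -0.13 for Kcnc2, from -0.49 to -0.27 for Kcnj6 and from -0.26 to -0.06 for Kcnv1. For Kcna3 (-0.86 to -0.85) and Kcnb2 (-0.43 in both) the size hardly moved, but with the larger errors neither was called (FDR = 0.183 and 0.169). Between APP/PS1/FTnKO and WT, 8 of the 14 members were called with RIN in the model, among them Kcna3, Kcnab2, Kcnip3, Kcnj3, Kcns1 and Kcnt1, while calls over all genes went from 674 to 388. Kcnb2, Kcnc2, Kcnh3, Kcnj4, Kcnj6 and Kcnv1 lost the call both with the covariate and with only the mice of RIN 8 or more, at log2 fold changes that stayed below 0 (-0.39 with the covariate and -0.45 with RIN 8 or more for Kcnj6, -0.51 without either). For Kcnb2 they were -0.41 and -0.42, beside -0.41. Kcnab2 and Kcnj3 lost the call with only the mice of RIN 8 or more. In APP/PS1/FTnKO against APP/PS1 the RIN covariate gave 3 calls in place of 1, Kcnip3 (-0.29, FDR = 0.0142), Kcnh3 (-0.27, FDR = 0.0291) and Kcns1 (-0.40, FDR = 0.0345). Calls over all genes went from 57 to 261 with this covariate. With only the mice of RIN 8 or more none of these 3 members was called, and 14 of all genes were.

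**Figure D4:**
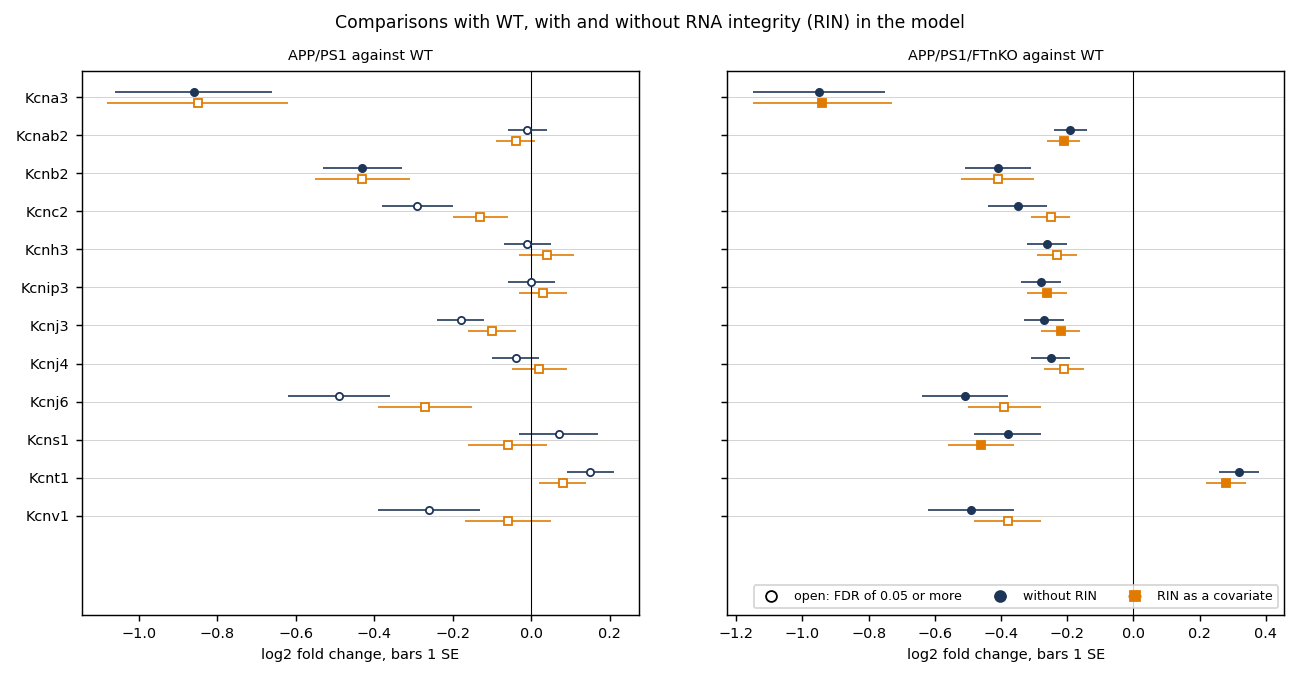
Log2 fold change with 1 SE (x axis) of 12 called members against WT, without RIN (circles) and with RIN as a covariate (squares); open symbols have an FDR of 0.05 or more. Kcna3, Kcnb2 and Kcnip3 stay in place, whereas Kcnc2, Kcnj6 and Kcnv1 move toward 0 in APP/PS1 against WT.

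Genes of channel partners were examined beside the members. Of 42 genes for Kv1, Kv2, Kv4, BK, KATP, Kir and Kv7 partners and HCN channels, 40 were tested, and 38 had a lower mean in APP/PS1 than in WT (median log2 fold change -0.12), where 50.6% of all genes did. Amigo1, the auxiliary subunit of Kv2 channels, was the only one called in that comparison (-0.27, SE 0.05, FDR = 0.0168), where 1.50% of all genes were. It was also called in APP/PS1/FTnKO against WT (-0.31, SE 0.05, FDR = 0.00529), as was Kctd12, a subunit of GABA-B receptors (-0.28, SE 0.08, FDR = 0.0499), which makes 2 calls of 40 beside 3.87% of all genes. With all 18 mice Amigo1 stayed called in both comparisons (FDR = 0.0486 and 0.017) and Kctd12 did not (FDR = 0.116). Of the partners, 22 were higher and 18 lower in the knockout mice relative to APP/PS1, with none called (median 0.02). The 5 HCN genes, which carry the hyperpolarization-activated current, were lower in APP/PS1 than in WT (median -0.23) and all 5 had higher means in the knockout mice relative to APP/PS1 (median 0.08), without a call.

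Markers of the cells that hold these channels moved with them to differing degrees, and their part in the results was not tested. The 10 excitatory neuron markers had median log2 fold changes of -0.10 in APP/PS1 against WT, -0.02 in APP/PS1/FTnKO against APP/PS1 and -0.14 in APP/PS1/FTnKO against WT, and Slc17a7, the vesicular glutamate transporter, was called in the last (-0.46, SE 0.12, FDR = 0.0396, but 0.557 with all 18 mice). Their summed level was 4662 to 6399 CPM in WT and 4058 to 6193 in APP/PS1 mice, against 3387 to 5108 in the knockout mice, and no marker of the list was at 0. The sum weighs abundant markers most, and 5 markers were higher and 5 lower in the knockout mice relative to APP/PS1. Of the lower ones Slc17a7 had 797 to 1389 CPM in APP/PS1 and 633 to 965 in the knockout mice. The 8 interneuron markers had medians of -0.12, 0.10 and -0.05 in the same order, with none called. The 8 microglial markers had summed levels of 377 to 427 CPM in WT, with 500 to 923 in APP/PS1 mice and 411 to 670 in the knockout mice, the opposite direction to Kcna3, and 4 of the 8 were called higher in APP/PS1 and 2 in APP/PS1/FTnKO against WT. The 9 markers of plaque-associated microglia had medians of 2.28, -0.23 and 1.79, with 8 called higher in each comparison with WT. Median log2 fold changes of the 8 astrocyte markers were 0.15, -0.02 and 0.15, with Gfap called higher in both comparisons with WT, those of the 8 oligodendrocyte markers 0.05, 0.03 and 0.06, and those of the 7 mural cell markers 0.04, 0.02 and 0.04. Other members known from glia and vessels were not called in any comparison: Kcnk13 (THIK-1, microglia) had 6.45 to 8.87, 5.76 to 8.38 and 5.18 to 7.54 CPM in WT, APP/PS1 and APP/PS1/FTnKO mice. Kcnj16 (Kir5.1, astrocytes) had 21.8 to 25.6, 22.4 to 36.8 and 18.7 to 30.7 CPM, and Kcnj8 (Kir6.1, pericytes) 3.05 to 5.67, 2.65 to 6.94 and 4.22 to 6.47 CPM.

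Kcnj13 and Kcne2 are channel genes known from the choroid plexus, and 1 mouse was high in both and in markers of that tissue, whose part in these levels was not tested. The 5 choroid plexus markers summed to 5.85 to 74.8 CPM in 16 mice and to 458 CPM in APP/PS1 mouse 19554. This mouse had 3.78 CPM of Kcnj13, where the other 5 APP/PS1 mice had 0.745 to 1.30, and 1.84 CPM of Kcne2, where they had 0.0562 to 0.310. Of the Kcnj13 exon length 49.1% overlaps Gigyf2 on the opposite strand. Whether reads were counted by strand is unknown from the sources used, so the level of Kcnj13 is uncertain. The same holds for called members that overlap a gene on the other strand, Kcnj3 with Gm26794 (31.1% of exon length) and Kcnj6 with Gm41505 (4.98%).

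Between males and females, 0 members were called by edgeR in the 17 mice, where 0.0689% of all genes were, and 0 by DESeq2 and limma-voom. At an unadjusted p below 0.05, 13 members differed, 7 higher and 6 lower in males, where 6.70% of all genes did. The smallest p was that of Kcnd3 (Kv4.3), with a log2 difference of males over females of 0.18 (SE 0.05, FDR = 0.549). Kcnip2 (-0.19, SE 0.06, FDR = 0.575) and Kcnab1 (-0.39, SE 0.13, FDR = 0.575) followed on the lower side, and the other members of smallest p were Kcnj3, Kcnma1, Kcnn2 and Kcnj6 (0.12 to 0.25, higher in males) and Kcng4, Kcna4 and Kcna5 (-0.38 to -0.22). The median of the 81 members was 0.00348.

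WT mouse 19622 had a potassium channel profile unlike that of any other mouse. Levels in this paragraph and the next are scaled over all 18 mice, and those of 19622 concern a single mouse and carry no test. Of the 81 members with at least 1 CPM in 19622 or in the mean of the other WT mice, 35 lay below all 17 other mice, 26 above and 20 within. The share outside was 74.1% for the 81 tested members and 55.4% for all genes, and 27.2% of the members, against 7.41% of all genes, were at least 4-fold from the mean of the other 5 WT mice. Kcnh3 had 0.906 CPM (206 to 221 in the other WT mice), Kcnj4 1.01 (138 to 165), Kcnh4 0.252 (26.3 to 45.8) and Kcnv1 0.806 CPM (86.6 to 119). Kcng3 had 1 read, or 0.0503 CPM with an exact Poisson 95% interval of 0.00127 to 0.281, where the other WT mice had 3.46 to 4.22. Kcnf1 (4.98, against 127 to 190) and Kcnip2 (8.16, against 161 to 199 CPM) were also low.

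On the other side Kcng4 (Kv6.4) had 146 CPM in 19622 (3.62 to 7.60 in the other WT mice), Kcnj12 56.0 (11.5 to 13.7), Kcnj13 9.16 (0.944 to 1.55) and Kcne2 6.70 CPM (0.00 to 0.333). Beside these, the 10 cerebellar markers summed to 3454 CPM in 19622 and to 148 to 199 in the other 17 mice, and the 6 forebrain markers to 6.80 against 171 to 308. The choroid plexus markers summed to 1363 CPM (5.90 to 459 in the others) and those of parvalbumin interneurons to 964 (105 to 200). Its RIN of 8.6 and its total of 19330958 counts lay within the ranges of the other mice. Its mean distance to the other WT mice, as the typical log2 difference of the 500 most different genes, was 4.31. APP/PS1 and knockout mice had 1.92 to 2.34 to their own genotype. The other WT mice had 2.40 to 2.51, values that include their distance to 19622. With this mouse in the WT group, the common dispersion of the fit rose from 0.0171 to 0.0400, and of the 14 calls in APP/PS1/FTnKO against WT 2 remained.

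**Figure D5:**
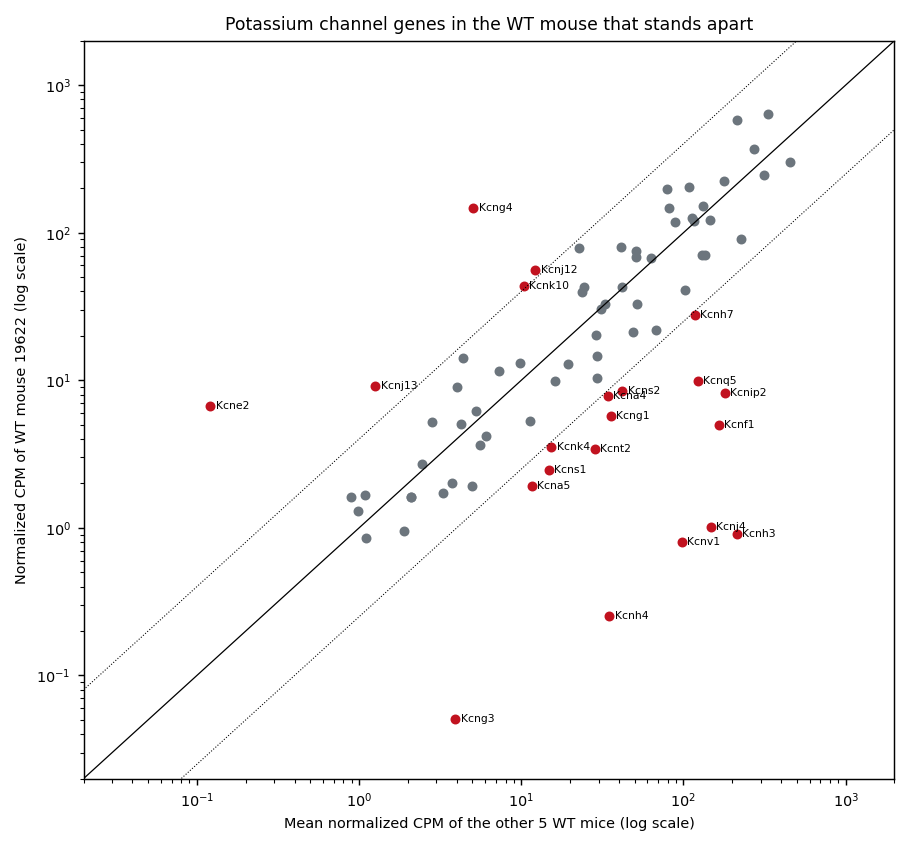
Normalized CPM of WT mouse 19622 (y axis) against the mean of the other 5 WT mice (x axis), both log scale, for 78 members with at least 1 CPM in either; the solid line marks equality and the dotted lines 4-fold. Red named points lie at least 4-fold apart, with Kcnh3, Kcnj4, Kcnv1 and Kcnh4 far below and Kcne2 and Kcng4 far above the line.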

How the data were processed

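Frontal cortical RNA of 18 mice had been sequenced by the authors from stranded mRNA libraries. Per the labels and the methods of the study, reads were trimmed with Trimmomatic 0.33, checked with FastQC 0.11.7, aligned with HISAT2 2.1.0 to GRCm38 and assigned to genes with featureCounts. The submitters' processing notes also name an older mouse build, while the gene identifiers matched GENCODE M21 on GRCm38 for 99.5% of genes and all 98 members. Strand and multi-mapping settings were not stated in the sources used. The deposited values are raw counts per gene, without normalization, for 55487 genes, and 0 of the columns were left unused.

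Counts were analysed in R 4.3.3 with edgeR 4.0.16: TMM scaling, filterByExpr with a minimum count of 10, the quasi-likelihood F test with sex as an additive term, and an FDR threshold of 0.05 over all tested genes. WT mouse 19622 was left out of the fit reported. The common estimate of spread, and levels given as CPM, use the remaining 17 mice. Levels in the description of mouse 19622 are scaled over all 18 mice instead. Alternatives were all 18 mice, DESeq2 1.42.0, limma-voom (limma 3.58.1), RLE scaling, no filter, a minimum count of 30, RIN as a covariate, only the genotypes compared, mice with a RIN of at least 8, a robust dispersion, no sex term and each mouse left out. DESeq2 on 18 mice and on only the genotypes compared was added after the counts had been seen. The test was checked on simulated data. Each sample is a separate mouse, so the replicates are biological.

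The members and the lists of partners and markers were chosen with earlier results of these data known. The genes named are called members, in each comparison those with the smallest p in each direction (up to 5), the highest member per kb of each subfamily, the members that lie farthest from the other WT mice in 19622, and called partners. Glial and choroid plexus members and the split by RIN were chosen after their values were seen. Members that share sequence with paralogs could exchange reads. RefSeq promoters were listed for 71 members and for 8 of the 14 called. Protein sequences were not used here. Some members enter the counts but are not reported here by name, value or sequence, and the figures leave them out.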

Additional observations from a re-analysis of the deposited data

Results flagged for a closer look

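Each of 36 named members was examined within each genotype of the 17 mice for a highest or lowest mouse that lay far from the rest of its group by Dixon's criterion. Such a mouse was found in 5 of 108 groups (4.63%), where chance alone gives about 1 in 20. Kcnh3 was 210.0 CPM in APP/PS1/FTnKO mouse 19720, where the next mouse had 178. The same mouse was lowest for Kcna5 at 9.00 CPM (next 10.7). Kcnd2 was 95.0 CPM in WT mouse 19718 (next 111), Kcnip4 64.5 CPM in APP/PS1/FTnKO mouse 19394 (next 56.4) and Kcnmb4 62.1 CPM in APP/PS1 mouse 19744 (next 49.8). WT mouse 19622 was the mouse that lay apart from the other 5 WT mice in 40 of 81 tested members (49.4%). This mouse had been set apart beforehand and the members of a single mouse are not independent, so the share is a description. The same share was not computed over all genes, so it does not set the members apart from other genes.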

How the results depend on the processing

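Counts of called members depended on the fit. In APP/PS1 against WT (3 called) there were 0 with all 18 mice (2 by DESeq2), with RIN as a covariate and with a RIN of at least 8, and 5 with DESeq2, with no filter and with DESeq2 on only the genotypes compared. In APP/PS1/FTnKO against APP/PS1 (1 called) there were 0 with all 18 mice, in either tool, with a RIN of at least 8 and with only the genotypes compared, 2 with no filter, 3 with the RIN covariate and 4 with DESeq2 on all 3 or only the compared genotypes. In APP/PS1/FTnKO against WT (14 called) there were 2 with all 18 mice, 3 with DESeq2 on 18 mice, 8 with the RIN covariate, 6 with a RIN of at least 8 and 22 with DESeq2 on only the genotypes compared. DESeq2 called 468, 253 and 1321 of all genes in the 3 comparisons of genotypes, where edgeR called 261, 57 and 674. On only the genotypes compared DESeq2 called 490, 161 and 1638 of all genes, and on 18 mice 427, 37 and 892. In the same order edgeR called 207, 2 and 261 on 18 mice, and 452, 104 and 971 with no filter. It called 84, 261 and 388 with the RIN covariate, 120, 14 and 368 with a RIN of at least 8, and 190, 5 and 859 with only the genotypes compared. Male against female gave 0 called members in every fit run. With each mouse left out, the counts were 1 to 5, 0 to 2, 3 to 18 and 0 to 0 in the same order. In the first comparison leaving out APP/PS1 mice 16975, 19554 or 19723 or WT mice 19721, 18944 or 19053 gave 1, and APP/PS1 mouse 19744 gave 5. In the second, 9 mice gave 0 when left out (APP/PS1/FTnKO mice 18973, 18943, 19394 and 19722, APP/PS1 mice 19744, 19553 and 19554 and WT mice 19721 and 18944), and APP/PS1/FTnKO mouse 19720 gave 2. In the third the count was 3 without WT mouse 19053, 4 without WT mice 19721 or 18944 or APP/PS1/FTnKO mouse 18943, 5 without APP/PS1/FTnKO mice 16974 or 19394, 6 without WT mouse 19718, 8 without APP/PS1/FTnKO mouse 19720 and 9 without APP/PS1 mouse 19553. The signs of 2 called members turned with 18 mice in APP/PS1/FTnKO against WT, Kcnh3 (0.03, and 0.02 by DESeq2) and Kcnj4 (0.03 in both tools), and Kcnip2 in male against female went from -0.19 to 0.00. Apart from the alternatives' fewer mice and the added mouse 19622, the cause was not tested. Of the 18 calls, those of Kcna3 and Kcnt1 in APP/PS1/FTnKO against WT held in 30 of 30 and 28 of 30 alternatives. Members called in other fits only were Kcna2, Kcnc2, Kcne1l and Kcnj6 in APP/PS1 against WT, Kcnab2, Kcnh3 and Kcns1 in APP/PS1/FTnKO against APP/PS1, and Kcna1, Kcna2, Kcna6, Kcnc1, Kcnd2, Kcnf1, Kcng3, Kcnh1, Kcnk3, Kcnma1 and Kcnq3 in APP/PS1/FTnKO against WT. The median log2 fold change of the members was below 0 in each comparison of genotypes in all fits run, but its size moved. In APP/PS1 against WT it went from -0.11 (79% lower) to -0.06 (65.4% lower) with the RIN covariate and with all 18 mice, in APP/PS1/FTnKO against WT from -0.19 to -0.12 with all 18 mice, and in APP/PS1/FTnKO against APP/PS1 from -0.05 to between -0.09 and -0.02 when 1 mouse was left out. No paired analysis was possible because the mice carry no shared replicate numbers.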

Other observations

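Of the 5 non-coding members 3 were tested and none was called. Kcnq1ot1, the imprinted antisense transcript of the Kcnq1 locus, had log2 fold changes of -0.12 (SE 0.10) in APP/PS1 against WT, 0.17 (SE 0.09, FDR = 0.54) in APP/PS1/FTnKO against APP/PS1 and 0.05 (SE 0.10) in APP/PS1/FTnKO against WT. Kcnq1 itself was at 0.70 to 1.24 CPM in WT and 0.291 to 1.12 in APP/PS1 mice, and at 0.0937 to 1.26 in the knockout mice, with overlap between all groups.

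Among K2P genes, which carry leak current, Kcnk3 (TASK-1) had 21.8 to 23.7 CPM in WT and 19 to 21.1 CPM in APP/PS1 mice without overlap, differing by -0.18 on the log2 scale (SE 0.08, FDR = 0.328 by edgeR), so the separation did not pass correction over all genes. Kcnk1, the highest K2P gene per kb, differed by -0.02 (SE 0.05) in APP/PS1 and by -0.09 (SE 0.05, FDR = 0.275) in APP/PS1/FTnKO against WT.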
